A study of Mus musculus with 42 samples.

Results

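Embryonic hippocampus of *Fmr1*KO mice was compared with that of wild-type mice on 12 of the 42 arrays of the series, which are the samples labelled as hippocampus from brain: 6 *Fmr1*KO and 6 WT. Both genotypes were on a C57BL/6 background and untreated, and the tissue, called primary hippocampus here, was collected from embryos at 17 to 18 days post-conception. Littermates were pooled under 1 mouse ID, so every array stands for a pool, and the sex of the embryos is not given. The KO pools carry the IDs 2037, 2038, 2221, 2620, 4236 and 4237, and the WT pools 2236, 2643, 2644, 3104, 3569 and NT. The rest of the series holds primary cortex (10 arrays), mostly of the same mouse IDs, and neuronal cultures.

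*Fmr1* encodes FMRP, an RNA-binding protein that sits on many neuronal mRNAs and restrains their translation, and its loss causes fragile X syndrome. In the hippocampus, FMRP loss is best known for exaggerated long-term depression through group 1 metabotropic glutamate receptors. Around the end of gestation the hippocampus still holds dividing progenitors, migrating neurons and Cajal-Retzius cells, and it borders the cortical hem, the choroid plexus of the lateral ventricle and the meninges. RNA of those neighbours is readily dissected with it. In bulk tissue, fewer cells of a type and less RNA per cell cannot be told apart.

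The arrays carried the tissue's own markers. Among 21 genes of the cortical hem and hippocampal field, the mean level of a single array ran from 8.45 to 9.06 log2 over the 12 arrays. Wnt8b, a Wnt ligand of the hem, had a mean of 9.39 ± 0.62 log2 over the KO arrays and 9.54 ± 0.78 over the WT arrays (SD, n = 6 each), and Prox1, the transcription factor of dentate granule neurons, averaged 8.81 and 8.90. The median log2 value of single arrays was alike throughout, as RMA leaves it, and the correlation of log2 values between any 2 arrays was at least 0.991. A background of 4.99 log2 was taken from receptor genes of the nose and genes of hair keratin partners, which brain does not use. Of the 18194 genes, 67.3% exceeded it in at least 1 genotype's mean.

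Few genes passed a test of genotype that treated the arrays as unpaired. With limma on the 12 arrays, 2 of 18194 genes passed a Benjamini-Hochberg adjusted p of 0.05 (0.011%), *Fmr1* itself and Dffa. At an unadjusted p under 0.05, 127 genes had higher levels in KO (0.698%) and 195 were lower (1.07%), together 1.77% of the genes. A threshold of 0.05 lets more than this share pass when no gene differs and arrays vary independently, so the count shows no excess over that. Any variation shared by a KO and a WT array stays in the spread of this unpaired fit. The low count therefore does not show that genotype had no effect. Of these 322 genes, 44.4% lay above background. Their median difference was 0.18 log2 in size, and 6 of them, 1 higher and 5 lower, were at least 1.5-fold apart. Every gene but these 2 had an adjusted p of at least 0.999. In what follows, "higher" and "lower" with an unadjusted p describe these 12 arrays, and the p-values measure the spread between pools.

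Arrays of the same genotype were no more alike than arrays of opposite genotype. Over genes above background, each centred on its mean of the 12 arrays, the average correlation was -0.14 between arrays of 1 genotype (30 pairs) and -0.05 between arrays of different genotype (36 pairs). For 11 of the 12 arrays the most similar other array was of the other genotype. The closest pairs were KO 2037 with WT NT (r = 0.66) and KO 4237 with WT 3104 (r = 0.62), followed by KO 4236 with WT 3569 (r = 0.43). The nearest arrays of the others were at r = 0.27 to 0.31, among them KO 2221 with WT 2644 (r = 0.31) and KO 2620 with WT 2236 (r = 0.27). The arrays of each pair named so far were each other's nearest. KO 2038 was nearest to WT 2643 (r = 0.29), but WT 2643 to WT 3104 (r = 0.31), of the same genotype. These are correlations across genes, which are not independent. The study's methods speak of KO and WT replicates handled in pairs on 1 day, with the tissue set aside from the same preparations as the cultures. The labels name no pair or day, so the part of handling in this likeness was not tested, and variation shared by a KO and a WT array remains in the spread that the fit uses. Genotypes also overlapped in a principal component analysis. On PC1, with 20.6% of the variance, KO arrays ran from -10.2 to 13.7 and WT arrays from -11.4 to 15.3 (difference -0.06, exact permutation test, two-sided, p = 0.996). On PC2, with 17.1%, the difference was -2.53 (exact permutation p = 0.595), and both tests had an adjusted p of 0.996.

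**Figure D1:**
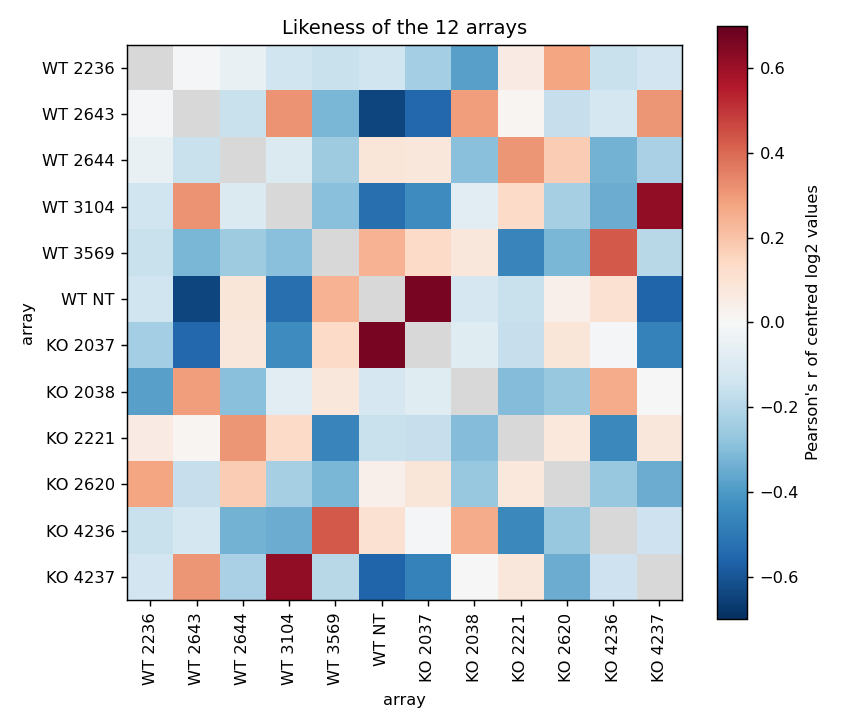
Pearson's r between each pair of the 12 primary hippocampus arrays, across genes above background centred on their mean; rows and columns are arrays by genotype and mouse ID, red is positive, blue negative, and the diagonal is left grey. The darkest red cells join a KO with a WT array, KO 2037 with WT NT (0.66) and KO 4237 with WT 3104 (0.62).

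*Fmr1* (Entrez 14265; chromosome X, 68678536 to 68717963 of GRCm38.p6) was lower in every KO array. The probe set with the highest level read 8.92, 8.97 and 9.18 log2 in KO (lowest, median and highest of 6) and 9.80, 9.94 and 10.07 in WT, without overlap. It fell by 0.93 on the log2 scale (standard error 0.06), or 1.91-fold, with an adjusted p of 6.11e-05 from limma. Signal remained well above the background of 4.99 in KO. A further probe set was lower in all KO arrays than in any WT array (-0.69, standard error 0.16), and its KO mean of 5.04 lay near background. The remaining probe set overlapped between genotypes (-0.30, standard error 0.11). By exact permutation over the 12 arrays the p was 0.00216, the smallest these numbers allow, for each of the first 2 probe sets and 0.0368 for the last.

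Dffa (chromosome 4, 149104142 to 149120653) was the only gene to rise past the adjusted threshold. It encodes ICAD, the chaperone and inhibitor of the caspase-activated DNase that cleaves chromatin in apoptosis. Its level was 7.45, 7.83 and 7.98 log2 in KO (lowest, median and highest of 6) and 6.76, 6.93 and 7.12 in WT, so that every KO array lay above every WT array. The difference was 0.83 (standard error 0.10, adjusted p = 0.0280 from limma), a 1.78-fold rise. When single arrays were left out, it ranged from 0.79 to 0.89. Its adjusted p then ran from 0.0102 to 0.133, and it stayed under 0.05 without KO 2221, KO 4237 or WT NT but not without any single one of the other 9. It was 0.980 with the choroid plexus level described below as a covariate and 0.468 without WT 2236 and 3569 together, and the unadjusted p stayed under 0.05 in all of these fits. The second probe set of the gene read 3.86 in KO and 3.91 in WT, below background. Dffa was also higher in KO in the other systems, each fitted alone: by 0.50 in primary cortex (unadjusted p = 4.48e-05 from limma), 0.46 in hippocampal culture (0.00136) and 0.36 in cortical culture (0.00521). The mouse IDs are largely shared between these systems. The rise was larger in hippocampus than in cortex by 0.33 (limma, unadjusted p = 0.0237, and 0.00845 with mouse ID as a replicate block). No gene passed this comparison after adjustment. Dffa was named for its low p on the same hippocampus arrays, so the comparison is not independent of that choice.

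Neither the neighbours of Dffa nor its pathway moved with it. Pex14 and Cort, on either side of it, differed by 0.07 (standard error 0.06) and -0.03 (standard error 0.08), and Cenps by 0.05 (standard error 0.08). Of 53 measured genes within 2 Mb, 0 were higher and 1 lower at an unadjusted p under 0.05 (limma), namely Zfp991, a zinc finger gene (-0.25, standard error 0.11). That is 1.89%, near the 1.77% of all genes. Dffb, which encodes the DNase that ICAD holds in check, was at 6.53 in KO and 6.52 in WT (difference 0.02, standard error 0.08). Of 29 genes of DNA fragmentation and apoptosis, Dffa was the only one past the unadjusted threshold. Diablo, a mitochondrial antagonist of the inhibitors of apoptosis, had the next smallest p (0.10, standard error 0.06).

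**Figure D2:**
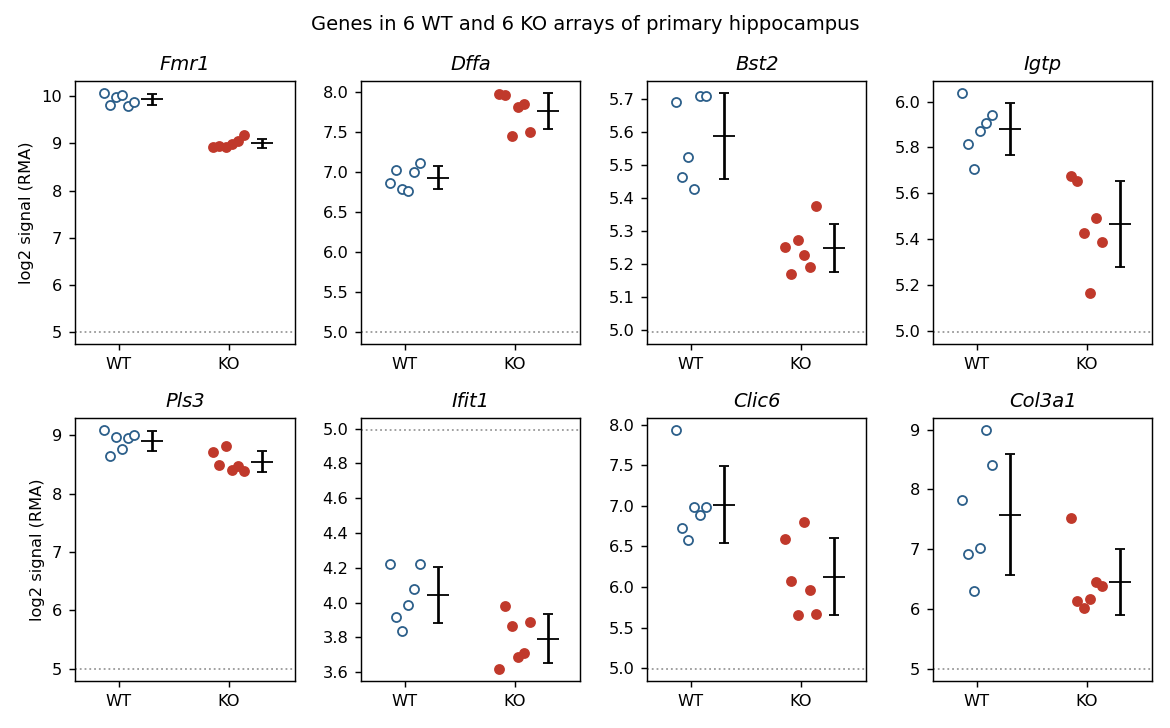
Log2 RMA signal (vertical axis, different range in each panel) of 8 genes in the 6 WT (open) and 6 KO (filled) arrays; each point is an array, the black bar is the mean ± SD, and the dotted line is the background of 4.99. Fmr1, Dffa, Bst2 and Igtp separate the genotypes completely, whereas Pls3, Ifit1, Clic6 and Col3a1 overlap.

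Among the gene lists, the interferon response held the highest share of lower genes. Interferons act through receptor-bound kinases and transcription factors on elements in the promoters of antiviral genes. Of 26 measured members, 11 were lower and 0 higher in KO at the unadjusted threshold of 0.05, against 1.07% lower among all genes, and the median difference was -0.18 against -0.003 over all genes. No single member passed an adjusted p of 0.05, and 11 of the 26 were above background. Bst2 (chromosome 8), which encodes the virus tether tetherin, was at 5.17, 5.24 and 5.38 in KO (lowest, median and highest) and 5.43, 5.61 and 5.71 in WT (difference -0.34, standard error 0.06, unadjusted p = 0.000136 from limma). Igtp (chromosome 11), an interferon-inducible GTPase that acts on vacuoles of intracellular pathogens, was at 5.16, 5.46 and 5.67 against 5.71, 5.89 and 6.04 (-0.41, standard error 0.09, unadjusted p = 0.000296 from limma). All KO arrays lay below all WT arrays for both genes. Among all genes, arrays separated this way for 9 with KO below (0.0495%) and 14 with KO above (0.0769%). Other members were lower with overlapping arrays: the ISG15 protease Usp18 (-0.75, standard error 0.27), the membrane protein Ifitm3 that blocks viral entry (-0.38), the chaperone Rtp4 (-0.28), the translational repressor Ifit1 (-0.25), and the RNA sensor Ddx58, or RIG-I (-0.21). Usp18 and Ifit1 had means below background in both genotypes. In single arrays Usp18 exceeded it in WT 2236 (5.86), WT NT (5.57) and WT 3569 (5.16) but in no KO array. Mx1 and Rsad2, well-known antiviral effectors, were at 0.00 and -0.03, Mx1 below background, and the transcription factors Irf7, Irf9 and Stat2 were at -0.06, -0.11 and 0.07 with none past the threshold. Outside the list, Dtx3l, a ubiquitin ligase of interferon signaling, was lower by -0.34 (standard error 0.09, unadjusted p = 0.0016 from limma).

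The promoters of the interferon genes are shown because several of the lower members share an element. The motif searched is the core of the interferon-stimulated response element, GAAANNGAAA, or TTTCNNTTTC on the other strand, in the 250 bases before each RefSeq start. It occurred in 2.98% of 32851 promoters and in 3.15% of the 14368 tested genes with a promoter. Of the 20 list members with a promoter it was held by 10, by 5 of the 8 lower ones and by 5 of the other 12. The windows below run 5′ to 3′ on the gene's strand in GRCm38.p6, with matches in capitals, and overlapping matches merge into 1 run. Bst2 is at chr8:71537542-71537647 (minus strand), Igtp at chr11:58199477-58199555 (plus), Trim30a at chr7:104465194-104465274 (minus), Ifit1 at chr19:34640740-34640858 (plus) and Irgm1 at chr11:48871421-48871495 (minus).
Bst2: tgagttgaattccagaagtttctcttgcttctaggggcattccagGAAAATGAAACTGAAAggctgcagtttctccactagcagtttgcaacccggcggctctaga
Igtp: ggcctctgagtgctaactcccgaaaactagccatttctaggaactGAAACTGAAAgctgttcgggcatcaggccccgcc
Trim30a: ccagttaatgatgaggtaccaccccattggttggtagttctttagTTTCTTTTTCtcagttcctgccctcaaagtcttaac
Ifit1: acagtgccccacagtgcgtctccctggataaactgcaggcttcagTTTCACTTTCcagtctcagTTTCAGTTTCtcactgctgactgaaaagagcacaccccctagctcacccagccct
Irgm1: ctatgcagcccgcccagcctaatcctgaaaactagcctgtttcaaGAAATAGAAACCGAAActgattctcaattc
Bst2, Ifit1 and Irgm1 hold 2 matches each, and Igtp and Trim30a hold 1. Igtp and Irgm1, related GTPases, carry theirs within the last 34 and 30 bases before the start. A match describes the letters and says nothing of factor binding in this tissue.

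The WT pools differed among themselves in the interferon genes. The mean over the 26 genes was 5.26 log2 in WT 2236, 5.24 in WT NT and 5.21 in WT 3569, but 4.95, 4.89 and 4.87 in WT 2644, 3104 and 2643. The KO arrays ran from 4.83 to 4.92, within or close to the latter. For 9 of the 11 lower members, and 14 of all 26, these same WT pools were the 3 highest of the 12 arrays. Primary cortex of the same mouse IDs had the same order: 5.47 in WT 2236, 5.17 in WT NT and 5.10 in WT 3569, with the other 7 cortex arrays between 4.84 and 4.90. In cortex 9 of the 26 genes were lower and 0 higher, against 0.786% lower among all genes there, and 6 were lower in both tissues (Igtp, Ifit1, Rtp4, Usp18, Ifitm3 and Irgm1). As both tissues come from the same pools, these are not separate litters. In hippocampus the number of lower genes was 8 to 15 when single arrays were left out. It was 4, with a median of -0.08, when WT 2236 and 3569 were left out together, and 2, with a median of -0.03, when the choroid plexus level entered the fit as a covariate. Bst2 and Igtp stayed past the unadjusted threshold in each of these fits. The part of the choroid plexus RNA and of the 3 WT pools in the difference was not tested.

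**Figure D3:**
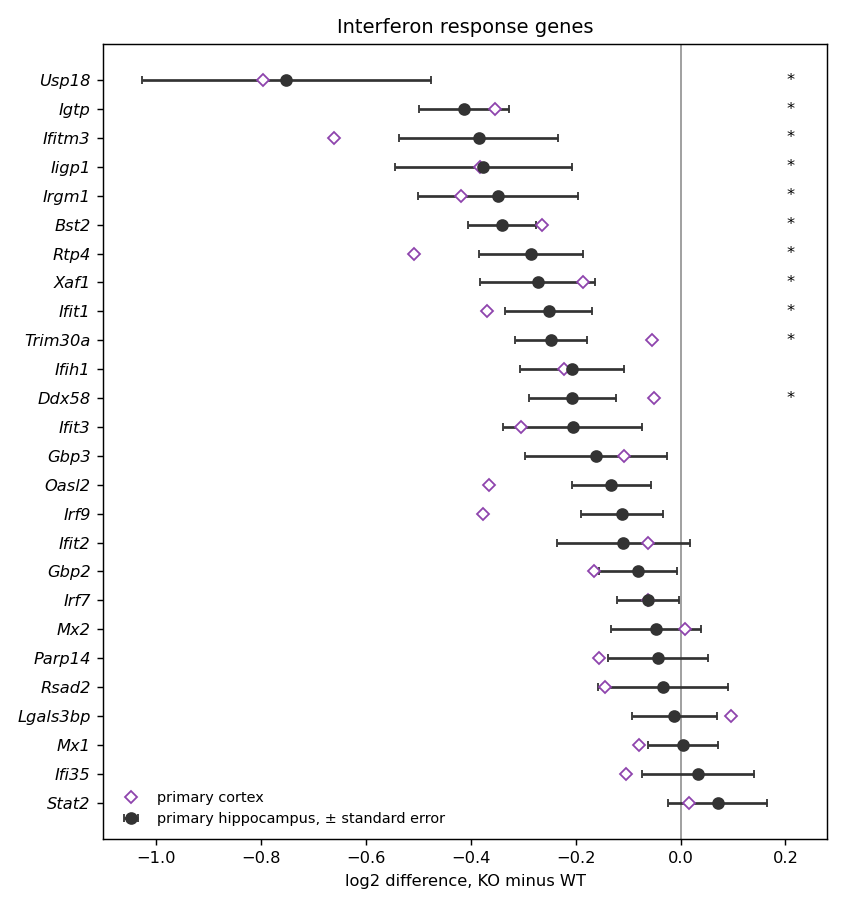
Log2 difference, KO minus WT, of the 26 interferon response genes in primary hippocampus (filled points with standard error, n = 6 against 6) and in primary cortex (open diamonds, 5 against 5); an asterisk marks an unadjusted p under 0.05 in hippocampus. The 11 marked genes all lie to the left of 0, from Ddx58 (-0.21) to Usp18 (-0.75).

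Some genes of the choroid plexus epithelium, which secretes cerebrospinal fluid, were lower in KO. Of 20 measured, 4 were lower and 0 higher at the unadjusted threshold, against 1.07% lower among all genes, and none passed an adjusted p of 0.05. Of the 20, 19 had a negative difference, and the median was -0.23. Signs also leaned 1 way in other lists, such as microglia (20 of 23 negative), cell cycle (35 of 44 negative) and immature neurons (17 of 20 positive). They did not in all, for example endothelium (12 of 21 negative). Clic6, a chloride channel protein, was at 5.66, 6.02 and 6.80 in KO and 6.58, 6.93 and 7.94 in WT (lowest, median and highest; difference -0.89, standard error 0.24, unadjusted p = 0.00235 from limma). Arrays overlapped, with KO 2620 and 2037 among the WT values. The others were the folate receptor Folr1 (-0.43), the potassium channel Kcnj13 (-0.68) and the secreted BMP antagonist Sostdc1 (-0.49). Ttr, the thyroid hormone carrier transthyretin, ranged from 10.44 to 12.96 in KO and 11.32 to 13.74 in WT and did not pass (-0.95, standard error 0.48). WT 2236 had the highest level of the list, 6.60, followed by WT 3569 with 6.20, while KO 2037, at 5.96, stood above the other KO arrays (5.62 to 5.71). The count was 2 without KO 4236, 7 without WT 2643, 8 without KO 2037 or WT 3104, and 2 without WT 2236 and 3569 together. Motile cilia genes, which choroid plexus and ependyma express, had 3 of 15 lower and 0 higher, among them the dynein light chain Dynlrb2 (-0.58, standard error 0.26). That count was 1 without KO 4236, KO 4237, WT 2236 or WT 3569 and 0 without both WT 2236 and 3569, and KO 2037 had the highest level of this list among the 12 arrays (5.40).

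Meningeal and fibroblast genes had 6 of 24 lower and 0 higher at the unadjusted threshold, with a median of -0.17. Among all genes 1.07% were lower and 0.698% higher. Col3a1, a fibrillar collagen, was at 6.01, 6.28 and 7.52 in KO and 6.31, 7.42 and 9.001 in WT (difference -1.13, standard error 0.41, unadjusted p = 0.0146 from limma). The small leucine-rich proteoglycan Lum (-0.47), the secreted protein Islr (-0.51) and Aldh1a2, which makes retinoic acid in the meninges and lay below background (-0.38), were lower too. Col1a1 and Col1a2, the chains of type I collagen, were at -0.06 and -0.29 and did not pass. WT 3569 had the highest level of the list, 6.48, and KO 2037 the highest of the KO arrays, 6.07. The count was 3 without KO 2620 or KO 4236 and 2 without WT 3569, without WT NT or without WT 2236 and 3569 together. With the choroid plexus level as a covariate it was 1, while the median was -0.14. F13a1 and Pf4, border macrophage genes that encode a transglutaminase and a chemokine, were at -0.53 and -0.47, both past the unadjusted threshold, while Mgl2, a lectin of such macrophages, was higher by 0.25 and below background. Of 13 border macrophage genes 2 were lower, F13a1 and Pf4, and 1 higher, and the lower count was 0 without KO 2221, WT 3569 or WT NT, 1 without KO 2037, KO 2038 or KO 4236, and 5 without WT 2644.

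**Figure D4:**
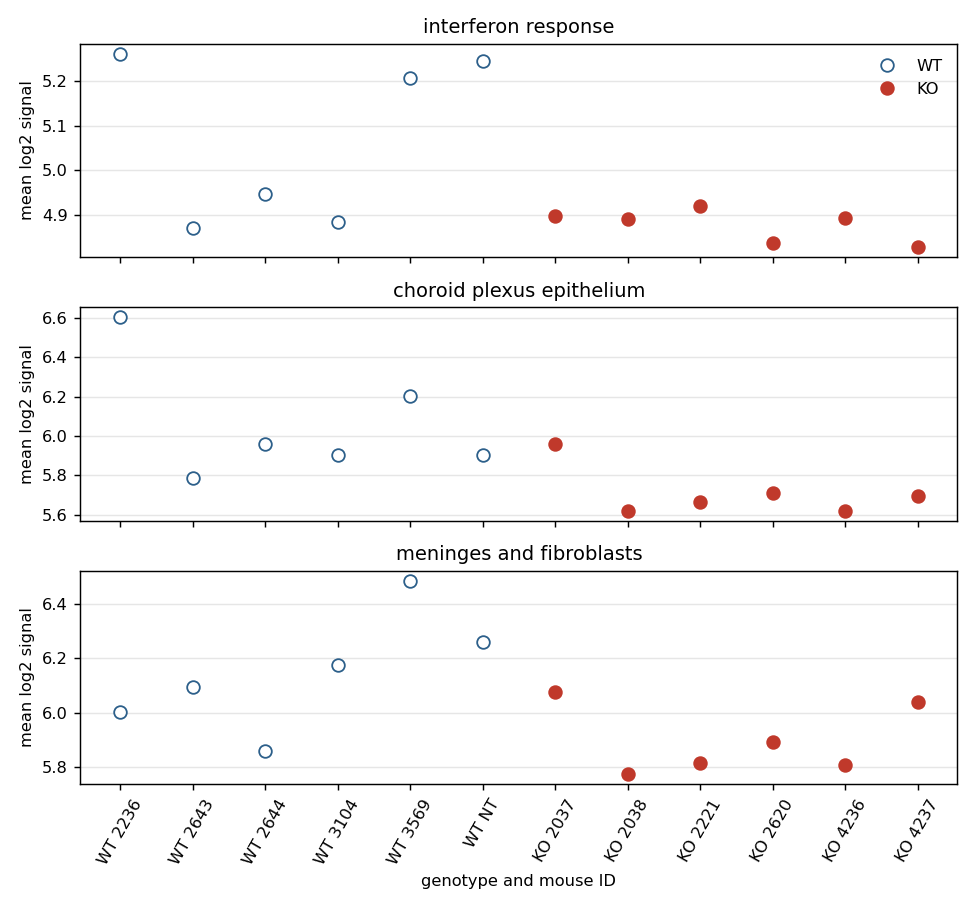
Mean log2 signal (vertical axis) over 26 interferon response, 20 choroid plexus and 24 meningeal genes in each primary hippocampus array (horizontal axis, genotype and mouse ID; open WT, filled KO). WT 2236, 3569 and NT stand at 5.21 to 5.26 for interferon genes, WT 2236 leads for choroid plexus (6.60) and WT 3569 for meninges (6.48).

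The KO effect was compared between hippocampus and cortex gene by gene. It differed at an unadjusted p under 0.05 for 2 of 20 choroid plexus genes, 3 of 24 meningeal genes and 1 of 15 cilia genes, and most members did not pass. In cortex 0 of 20 choroid plexus genes passed for KO against WT (2.39% of all genes did), with a median of -0.02, and the mean level of the list lay between 4.60 and 5.29, around the background of 4.99 and under every hippocampus array. The genes named next already had a low p in hippocampus. Clic6 differed between the tissues by -0.88 (limma, unadjusted p = 0.00518, 0.00247 with mouse ID as a replicate block), Folr1 by -0.81 (0.00545, 0.00268 with the block) and Col3a1 by -1.40 (0.0124, 0.00427 with the block). Over all genes 326 (1.79%) passed an unadjusted p of 0.05 in this test and 0 an adjusted one. With mouse ID as a replicate block 611 genes passed unadjusted and 0 adjusted.

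Other immune lists held few genes past the unadjusted threshold, but these were small lists, and 1.77% of all genes passed it. Among 23 microglial genes 1 was lower, the complement subunit C1qc (-0.31, unadjusted p = 0.0335 from limma), although its partners C1qa and C1qb were both at -0.02. That count was 0 without KO 2221, KO 2620, WT 2643, WT 3104 or WT 3569 and 2 without WT 2644. Of 22 complement and coagulation genes, 2 were lower, F13a1 and C1qc, and 1 was higher, Cd59a, a shield of cells against complement (0.23, standard error 0.10). The lower count was 5 without KO 2037, 1 without KO 2620, KO 4236, WT 3104 or WT NT, and 0 without KO 2221 or WT 3569. Of 16 genes of MHC class I presentation 2 were lower and 0 higher: the peptide trimmer Erap1 (-0.25) and the transactivator Nlrc5 (-0.14), both below background. The lower count was 1 without KO 2038, KO 2620, KO 4236, WT 2236, WT 2643, WT 2644 or WT NT. Of 67 cytokines, chemokines and receptors, 3 were lower and 0 higher, Pf4, Il10rb and Tslp. That count was 1 without KO 2620, WT 3104, WT 3569 or WT NT and 0 without KO 2038. Of 15 cytokine receptor genes that the study picked on these samples, 4 were lower, such as the interferon Ifna9 (-0.19) and the receptor chain Il10rb (-0.24), and 2 higher, the interferon lambda receptor Ifnlr1 (0.13) and the TNF family ligand Tnfsf14 (0.14). Of 10 cell adhesion genes picked in the same way, 2 were lower and 0 higher: the leukocyte integrin chain Itgb2 (-0.20) and the tight junction protein Cldn11 (-0.20), both below background. Having been chosen on these arrays, those counts are not independent evidence. The 4 lower cytokine receptor genes were 2 without KO 2620, WT 3104 or WT NT and 1 without KO 2038 or WT 3569, and the 2 lower adhesion genes were 1 without KO 2221, WT 2236 or WT 3569.

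Neuronal and progenitor lists had median differences near 0. None of 27 synapse, 20 immature neuron, 17 forebrain glutamatergic, 18 interneuron, 16 radial glia, 13 intermediate progenitor or 44 cell cycle genes passed an unadjusted p of 0.05 (limma). As 1.77% of all genes passed, a count of 0 in a list this small is near that share. The same holds for the counts of 0 below. Their medians lay between -0.04 for intermediate progenitors and 0.07 for interneurons. All 10 Cajal-Retzius genes had a positive difference, with a median of 0.09, and none passed. Reln, the secreted guide of neuronal migration, was at 12.30 ± 0.08 in KO and 12.20 ± 0.19 in WT (SD, n = 6 each; difference 0.10, standard error 0.08). The FMRP paralogs Fxr1 and Fxr2 differed by -0.07 and -0.08, each with a standard error of 0.09, and 0 of 17 FMRP family and partner genes passed. So did 0 of 25 genes of mGluR5 signaling. Its receptor Grm5 was at 8.08 ± 0.42 in KO and 8.05 ± 0.58 in WT (difference 0.03, standard error 0.25), and the scaffold Homer1 at -0.09 (standard error 0.06). Among 860 measured mRNA targets of FMRP from the study's list, 4 were higher and 1 lower, with a median of 0.003. That is 0.58% past the unadjusted threshold, against 1.77% of all genes. The lower target, Rnf213, a giant ubiquitin ligase that interferon induces, was at 6.52 ± 0.11 against 6.82 ± 0.25 (-0.30, standard error 0.10). Of 594 measured SFARI autism genes, 1 was higher and 6 lower, *Fmr1* among them, with a median of 0.01. Their share past the threshold, 1.18%, was also below that of all genes. Most members of both lists were above background, 814 of the 860 targets and 494 of the 594 SFARI genes. Of all genes above background 1.17% passed, so the share of SFARI genes was near that of expressed genes, and the gap of the targets is smaller against it.

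**Figure D5:**
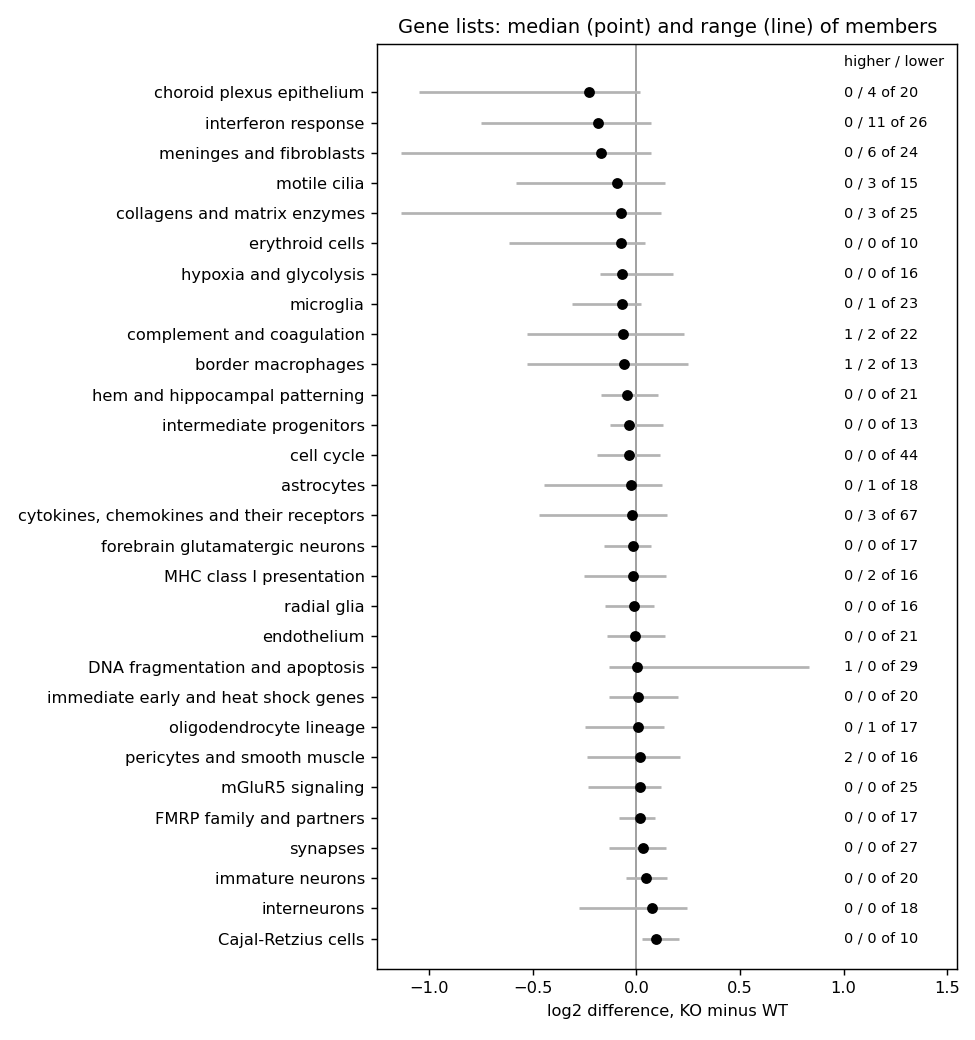
Log2 difference, KO minus WT, of 29 gene lists in primary hippocampus: the point is the median of the measured members, the line runs from the lowest to the highest member, and the numbers at the right give members higher and lower in KO at an unadjusted p under 0.05. Choroid plexus (-0.23), interferon response (-0.18) and meninges (-0.17) have the lowest medians, and lists of neurons and progenitors lie close to 0.

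Genes near *Fmr1* on chromosome X held opposing signals within single genes. Of 98 measured within 10 Mb, 3 were higher and 2 lower at an unadjusted p under 0.05, with a median of 0.005. That is 5.1%, against 1.77% of all genes. Pls3, the actin bundling protein plastin 3, 7.07 Mb away, was at 8.38, 8.47 and 8.82 in KO and 8.64, 8.96 and 9.10 in WT (lowest, median and highest; -0.36, standard error 0.09, unadjusted p = 0.002 from limma). Cd99l2, an adhesion protein of leukocyte migration 2.70 Mb away, was higher on its brightest probe set (0.17, standard error 0.06). Its other probe sets read -0.81, -0.30 and -0.71 with standard errors of 0.14, 0.06 and 0.15, so the direction of the gene depends on the probe set. Fundc2, a mitochondrial outer membrane protein 6.66 Mb away, behaved alike: 0.21 (standard error 0.08) on the brightest probe set, and -0.63 (standard error 0.15) and -0.32 (standard error 0.09) on the others. Its neighbour Brcc3, a deubiquitinase of the DNA damage response, was higher by 0.15 (standard error 0.06). In primary cortex the same brightest probe sets of Cd99l2 and Fundc2 read 0.23 and 0.31, and Pls3 read -0.32.

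Other genes above background with the smallest p included Zfp940, a zinc finger gene (-0.20, standard error 0.05, no overlap), Tspo, the mitochondrial translocator protein (-0.19, standard error 0.05), and A2m, the protease inhibitor alpha-2-macroglobulin (-0.51, standard error 0.16), on the lower side. On the higher side was Dlk2, a Notch ligand relative (0.29, standard error 0.09). Of 16 pericyte and smooth muscle genes, 2 were higher and 0 lower, against 0.698% higher among all genes. They were the potassium channel subunit Kcnj8 of pericytes (0.18, standard error 0.07) and Myl9, a myosin light chain of smooth muscle (0.21, standard error 0.08). The higher count was 1 without KO 2037, KO 2620, KO 4237 or WT NT and 0 without WT 2236 or WT 2643. Xist, the X-inactivation RNA, ranged from 11.2 to 12.4 log2 in KO and 10.01 to 12.4 in WT, and its difference of 0.30 (standard error 0.33) did not pass.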

How the data were processed

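Total RNA of 12 primary hippocampus pools had been hybridized to Affymetrix whole-genome mouse arrays. The authors deposited log2 values made with RMA (background correction, quantile normalization and a summary per probe set); they were used as deposited. Arrays hold no counts, and their number limits the precision. Of 45101 probe sets, 64 controls were left out; 34945 of the remaining 45037 carry 1 gene symbol, 932 several and 9160 none. A gene is represented by the probe set with the highest mean over all 42 arrays. R 4.3.3 with limma 3.58.1 (lmFit, eBayes; 10 residual and 3.62 prior degrees of freedom) was fitted to the 12 arrays, with Benjamini-Hochberg adjustment over 45037 probe sets. The unadjusted threshold of 0.05 follows the study. Background is the 95th percentile of 123 probe sets. PCA (values ranked and standardized within arrays), exact permutation tests and figures used Python 3.11.15, NumPy 2.4.6 and Matplotlib 3.10.9. Positions and promoters are from RefSeq, GRCm38.p6. The fit was tested on simulated data.

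The members and gene lists were chosen with earlier results of these data known. Named genes are *Fmr1*, genes past the adjusted threshold, the 10 higher and 10 lower genes above background with the smallest p, the first 3 members and the 4 with the smallest p of each list, and genes near *Fmr1* or Dffa; Prox1, Usp18, Rtp4, Ifitm3, Irgm1, Ddx58, Mx1 and Rsad2 were added after their values were seen. KO and WT pools have different mouse IDs, and the labels name no KO and WT pair, so none was used. Hippocampus and cortex of 1 mouse ID come from the same pool and deviated together in all 10 pairs (r = 0.24 to 0.55, each highest with its own), so the comparison of tissues is also given with the ID as a replicate block. Alternatives covered the arrays in the fit, variance model, weights, background filter, probe set, normalization, a choroid plexus covariate and leaving out each array.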

Additional observations from a re-analysis of the deposited data

Results flagged for a closer look

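In 6 arrays of 1 genotype, a single array lay far from the other 5 for the following genes and lists (ratio of its gap to the nearest array over the whole range, past Dixon's 95% critical value in 11 of 152 groups checked; chance marks about 1 in 20). WT 2236 was the highest WT array for Clic6 (ratio 0.705), Folr1 (0.752) and Kcnj13 (0.644). KO 2037 was the highest KO array for Kcnj13 (0.709), Dynlrb2 (0.669), Col3a1 (0.709) and the mean level of the choroid plexus list (0.737). WT 3569 was the highest WT array for Myl9 (0.645) and Il10rb (0.668), and KO 2221 the highest KO array for Tspo (0.630). For the mean level of 4 sex-linked genes, Xist and 3 Y-linked genes, WT 2643 was the lowest WT array (7.15 log2, ratio 0.657). KO 2038 (7.03) and KO 4236 (7.21) had similar levels of this list. In no named gene did the KO effect differ between hippocampus and cortex at an adjusted p under 0.05 in limma; 326 of all genes passed unadjusted.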

How the results depend on the processing

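The fall of *Fmr1* passed an adjusted p of 0.05 and the rise of Dffa an unadjusted one under every alternative run. Of 61 named genes past the unadjusted threshold, 14 stayed past it with the same sign under all alternatives, Bst2, Igtp and Dtx3l among them. With probe sets above background only, 48 genes were higher and 95 lower, by construction, since fewer were tested; at an unadjusted p under 0.01 there were 18 and 31, and with the smallest p per gene 259 and 353. The lowest adjusted p of Clic6 over its 22 alternatives was 0.0213 (limma), but its highest unadjusted p over them was 0.126 (limma). Genes past the adjusted threshold numbered 3 with all 42 arrays in the fit and 1 with the choroid plexus covariate. They numbered 1 with WT 2236 and 3569 left out, an alternative chosen after seeing the data. With single arrays left out, they numbered 1 to 2, with 105 to 170 genes higher and 146 to 228 lower. Paired by mouse ID as a replicate block, 611 genes in place of 326 differed in their KO effect between the tissues; 0 passed after adjustment in either fit. Signs turned with the smallest-p probe set for Cd99l2 (-0.81) and Fundc2 (-0.63), and with the choroid plexus covariate, which is computed from genes of that list, for Kcnj13 (0.14), Sostdc1 (0.11), Dynlrb2 (0.11), Col8a2 (0.038) and 2510039O18Rik (0.23). With that covariate 0 choroid plexus genes and 1 meningeal gene were lower (meningeal median -0.14 against -0.17), and with 22 tissue arrays in the fit 7 choroid plexus genes. The cause was not tested. Genes below background give only a weak bound on a difference.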
